A study of Rattus norvegicus with 6 samples.

Results

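Levels of 10 genes of protein folding and stress signaling in the endoplasmic reticulum (ER) were followed in rat myocardium. These were the chaperones Hspa5, Hsp90b1, Calr and Canx, the protein disulfide isomerases Pdia3, Pdia4 and Pdia6, the transcription factor gene Xbp1, and Herpud1 and Dnajb9. They were chosen by name from the deposited expression table, where each symbol had 1 row, so that 10 of 32623 genes were taken and all 10 passed the filter for testing. Total RNA of wild-type (WT) male rats was sequenced in 6 samples of myocardial tissue, 3 labelled sham and 3 labelled ischemia, and both groups carry the label 30 min. Ischemia was made by tying off the left anterior descending (LAD) coronary artery after opening the chest under ventilation. For the sham rats no ligation is described. The labels call the samples separate replicates without naming the animals, so p-values measure the spread between these samples. They also do not say which part of the heart was taken.

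The ER folds proteins bound for membranes and secretion. Chaperones and isomerases in its lumen hold new chains and form their disulfide bonds, and the heart muscle cell depends on the same compartment for its calcium stores. When unfolded chains pile up, the unfolded protein response starts from the sensors Ire1 (gene Ern1), Perk (Eif2ak3) and Atf6, which are held inactive by BiP, the protein of Hspa5. Cleaved Atf6 and the protein made from spliced Xbp1 mRNA then turn on chaperone and degradation genes through the ER stress response element (ERSE), while Perk slows translation and favors Atf4.

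Promoter sequences are shown first because they hold the elements through which the response is known to act. RefSeq windows on GRCr8, from 250 bases before to 50 bases after the annotated start, were found for 8 of the 10 genes, all but Pdia3 and Pdia6. ERSE was searched on both strands as CCAAT, 9 bases of any kind and CCACG, and ERSE-II as ATTGG, 1 base and CCACG. The unfolded protein response element (UPRE), a further Xbp1 motif of 8 letters, was searched by its exact letters. The lines give each match with up to 30 bases on either side, read in the direction of the gene, and capitals mark the fixed letters of the element.
Hspa5: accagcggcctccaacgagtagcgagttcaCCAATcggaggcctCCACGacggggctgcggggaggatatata
Hsp90b1, far site: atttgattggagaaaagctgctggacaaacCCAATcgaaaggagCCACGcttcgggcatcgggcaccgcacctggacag
Hsp90b1, near site: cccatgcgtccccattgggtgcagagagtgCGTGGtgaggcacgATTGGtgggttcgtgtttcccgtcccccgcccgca
Calr: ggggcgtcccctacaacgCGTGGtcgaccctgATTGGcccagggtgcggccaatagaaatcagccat
Canx: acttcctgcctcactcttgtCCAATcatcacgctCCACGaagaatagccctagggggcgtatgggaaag
Xbp1: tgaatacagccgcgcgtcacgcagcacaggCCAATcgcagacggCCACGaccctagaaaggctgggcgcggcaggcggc
Herpud1: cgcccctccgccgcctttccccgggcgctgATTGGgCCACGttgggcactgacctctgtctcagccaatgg

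On GRCr8 these stretches lie at chr3:38452943-38453015 on the plus strand (Hspa5), chr7:23012421-23012499 and chr7:23012317-23012395 on the minus strand (Hsp90b1), chr19:40213117-40213183 on the plus strand (Calr), chr10:35158039-35158107 on the minus strand (Canx), chr14:84604528-84604606 on the plus strand (Xbp1) and chr19:10614791-10614861 on the minus strand (Herpud1). The near Hsp90b1 site and the Calr site are in reverse orientation, so their capitals read CGTGG and ATTGG. The matches began 43 bases before the start in Hspa5, 65 in Xbp1, 176 and 72 in Hsp90b1, 232 in Calr, 230 in Canx and 124 in Herpud1. ERSE stood in 5 of the 8 windows and ERSE-II in 1, against 22 (0.0657%) and 17 (0.0508%) of all 33469 windows. The members were picked as genes of the response that is known to act through these elements, so this contrast is no separate result. UPRE was in none of the 8 and in 199 (0.595%) of all windows. In the windows of Pdia4 and Dnajb9 none of the 3 motifs was found. A match is a run of letters and not a shown binding site, and no binding was measured here.

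**Figure D1:**
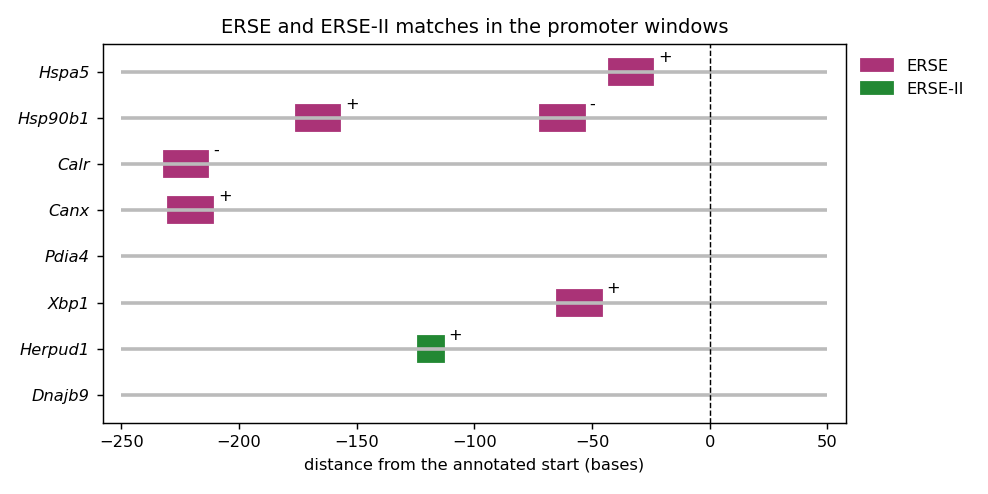
Places of the exact ERSE matches (purple) and the ERSE-II match (green) in the promoter windows of 8 genes. The x axis is the distance in bases from the annotated start (dashed line), grey lines are the windows, and plus or minus gives the orientation of the match relative to the gene. Hsp90b1 has 2 matches, the sites of Hspa5 and Xbp1 lie near the start, and Pdia4 and Dnajb9 have none.

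Each library held between 68529126 and 79591989 counts, and 13964 genes with a mean FPKM (fragments scaled by gene length and library size) of at least 0.5 were tested. Heart muscle genes were present in every library, with a summed FPKM of 9 ventricular and general cardiomyocyte markers between 12187 and 43784. Of these, Myl3 had 796, 9024 and 1021 FPKM for sham and 5691, 3180 and 5780 FPKM for ischemia, by replicate number. Myl2 had 366, 2795 and 346 FPKM for sham and 1315, 594 and 1238 FPKM for ischemia. Both, named after their values were seen, were lowest in sham replicates 1 and 3, and no other marker of the list was. Several libraries stood apart from the others of their group. The summed FPKM of 4 atrial markers was 15119, 148 and 14234 for sham replicates 1 to 3 and 2180, 27.4 and 28.4 for ischemia replicates 1 to 3. Lung secretory genes reached a summed FPKM of 411 in ischemia replicate 1 and at most 15.1 elsewhere. Sham replicate 1 held 161 counts on the Y chromosome, against 3218 to 8970 in the other 5 libraries, although the rats are described as male. In bulk tissue, more RNA per cell and more cells of a kind that is rich in a transcript cannot be told apart.

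All 10 ER genes had a log2 fold change above 0 between ischemia and sham, against 49.9% of all tested genes. Of the 10, 1, Xbp1, rose past an adjusted p of 0.05 in the quasi-likelihood test of edgeR. No member fell. Among all tested genes that test called 5.18% higher and 1.53% lower, so 1 of 10 is near the background. An unadjusted edgeR p under 0.05 with a higher level was reached by 9 of the 10, against 18.2% of all tested genes. That number was 4 without sham replicate 2, 4 without sham replicate 3, 5 without ischemia replicate 2 and 7 to 9 without any of the other 3 libraries. Over all 13964 tested genes, 4528 had an unadjusted edgeR p under 0.05 in either direction with all libraries. In the same order of left-out libraries these were 3809, 3255, 3690 and 3020 to 5509. With all libraries, in the same 9 all 3 ischemia libraries were above all 3 sham libraries, which was the case for 22.0% of all tested genes. DESeq2 called 8 of the 10 higher and 0 lower, with 14.8% of all tested genes called higher. Under edgeR without ischemia replicate 1, 3 members passed, with 10.7% of all tested genes called higher. Without ischemia replicate 2 it was 1, Hspa5, with 3.31% of all tested genes, and 0 passed without sham replicate 1, 2 or 3 or ischemia replicate 3. At a mean FPKM of at least 5, which left 8156 genes, 2 members passed, with 8.89% of those genes called higher. Log2 fold changes ran from 0.55 for Herpud1 to 1.86 for Hsp90b1. Their median was 1.05, a fold of 2.07, while the median of all tested genes was -0.0015. Taken one gene at a time, a two-sided exact permutation test of mean log2 FPKM gave p = 0.1 for those 9 genes, the smallest value that 3 against 3 can give, and p = 0.2 for Dnajb9.

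**Figure D2:**
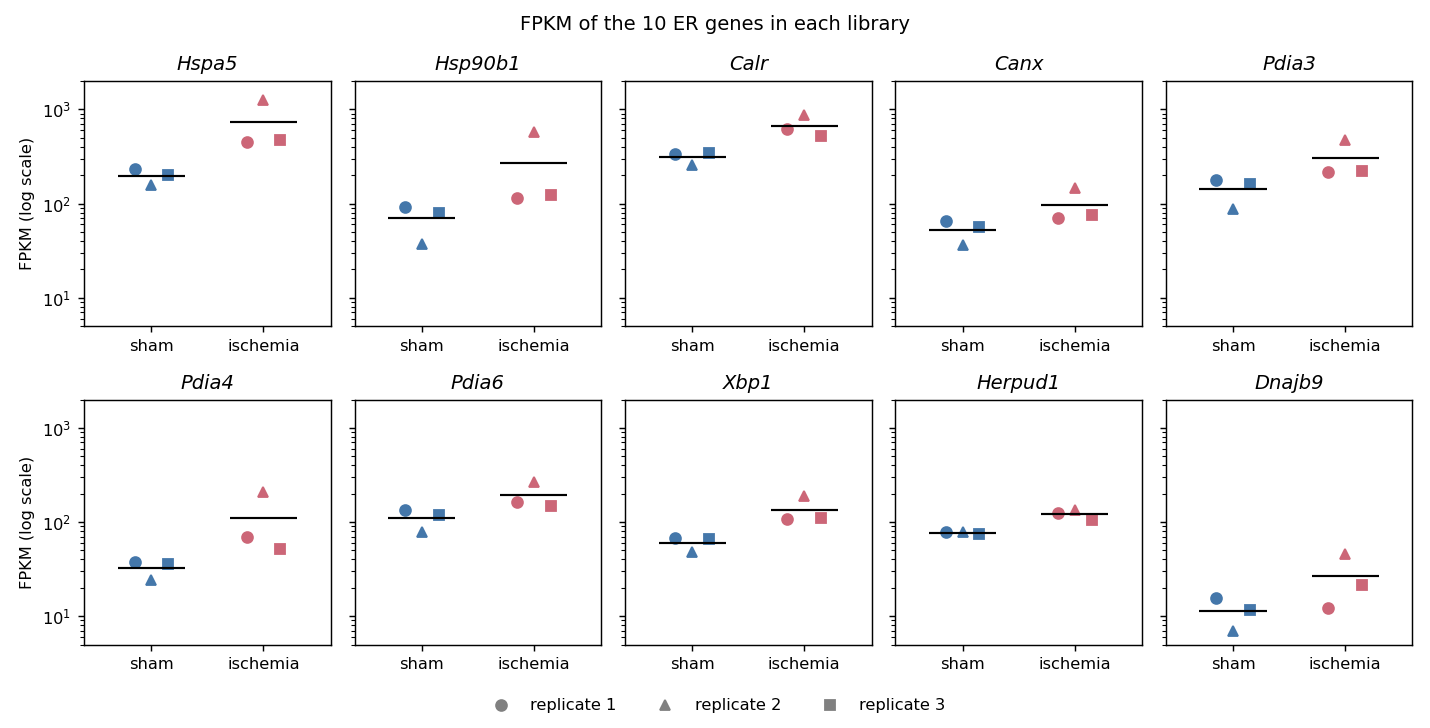
FPKM of the 10 ER genes (log axis) in the 3 sham (blue) and 3 ischemia (red) libraries, with the mark showing the replicate number and the black line the group mean. Ischemia replicate 2 is the highest library for 10 of 10 genes, and Dnajb9 is the gene whose groups overlap.

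Hspa5 encodes BiP, the HSP70-class chaperone of the ER lumen, which binds hydrophobic stretches of unfinished chains and restrains the stress sensors. Its row lies at 13838304 to 13842762 on the plus strand of chromosome 3 in the coordinates of the deposited table, whose genome build is not given in the sources used here and which are used for the other rows as well. In the order of the replicate numbers, FPKM was 230, 159 and 199 for sham and 455, 1266 and 468 for ischemia, and values of the other genes are given in that order too. The groups did not overlap, and ischemia replicate 2 was far above the other two. The sham mean was 196 ± 35.4 (SD, n = 3) and the ischemia mean 730 ± 464 (SD, n = 3). Ischemia differed from sham by 1.79 ± 0.42 (SE) on the log2 scale (edgeR adjusted p = 0.0544), just short of the threshold. Without ischemia replicate 2 the difference was 1.21 and its edgeR adjusted p was 0.0476. Over all 15 alternative settings the adjusted p of Hspa5 ran from 0.0004 (DESeq2) to 0.175 (without sham replicate 1).

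Dnajb9 encodes ERdj4, a J-domain partner of BiP that stimulates its ATPase activity and takes part in degradation of misfolded chains and in repression of Ire1. It lies on chromosome 6, 64165913 to 64170151, minus strand, and was the least abundant of the 10 genes. FPKM was 15.7, 6.97 and 11.6 in the sham libraries and 12.2, 45.9 and 21.2 in the ischemia libraries. Ischemia replicate 1 lay within the sham range, so the groups overlapped. Ischemia differed from sham by 1.12 ± 0.47 (SE) on the log2 scale (edgeR adjusted p = 0.158). It was 0.55 without ischemia replicate 2 and 1.44 without ischemia replicate 1, and in the latter case the edgeR adjusted p was 0.0497.

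Hsp90b1 encodes Grp94, the HSP90-class chaperone of the lumen, which matures a narrow set of client proteins such as integrins and Toll-like receptors. It lies on chromosome 7, 27226569 to 27240533, minus strand. FPKM was 92.6, 37.2 and 79.0 for sham and 116, 575 and 124 for ischemia. The groups did not overlap, but 2 of the 3 ischemia libraries were near the highest sham library. The mean of 272 ± 263 (SD, n = 3) in ischemia had an SD about as large as itself, against 69.6 ± 28.9 (SD, n = 3) in sham. This gave the highest fold change of the 10 and also the widest error, 1.86 ± 0.67 (SE, edgeR adjusted p = 0.119). Leaving out ischemia replicate 2 brought the log2 fold change to 0.79.

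Calr and Canx encode calreticulin and calnexin, the soluble and the membrane-bound lectin chaperone that hold glycoproteins by their trimmed sugar chains, and calreticulin also buffers calcium in the lumen. Calr (chromosome 19, 25956771 to 25961666, minus strand) had FPKM values of 339, 256 and 341 for sham and 624, 869 and 523 for ischemia. Even the lowest ischemia library was above every sham library by a wide margin. Means were 312 ± 48.6 and 672 ± 178 (SD, n = 3 each). The log2 fold change of Calr was 1.02 ± 0.23 (SE, edgeR adjusted p = 0.0510).

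For Canx (chromosome 10, 35800942 to 35833861, minus strand) the values were 65.0, 36.2 and 55.7 FPKM for sham and 70.3, 145 and 75.7 FPKM for ischemia. The groups did not overlap, and the gap between sham replicate 1 and ischemia replicate 1 was small. Its log2 fold change was 0.81 ± 0.31 (SE, edgeR adjusted p = 0.134), and it was 0.47 without ischemia replicate 2. Both lectin chaperone promoters hold an ERSE at the far end of the window.

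Pdia3, Pdia4 and Pdia6 encode disulfide isomerases that form and rearrange cystine bridges; Pdia3 works with the lectin chaperones on glycoproteins. Pdia4 (chromosome 4, 77470636 to 77489535, minus strand) had 37.2, 24.5 and 35.5 FPKM for sham and 68.6, 209 and 51.6 FPKM for ischemia. All ischemia libraries were higher, and replicate 2 lay far above the others. Its log2 fold change was 1.65 ± 0.50 (SE, edgeR adjusted p = 0.0875).

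Pdia3 (chromosome 3, 113376983 to 113400707, plus strand) had 180, 86.6 and 160 FPKM for sham and 214, 468 and 223 FPKM for ischemia. Pdia6 (chromosome 6, 42568220 to 42585652, plus strand) had 133, 79.3 and 118 FPKM for sham and 164, 266 and 146 FPKM for ischemia. In both genes the groups were separate, with sham replicate 2 lowest and ischemia replicate 2 highest. The log2 fold change was 1.01 ± 0.36 (SE) for Pdia3 and 0.72 ± 0.25 (SE) for Pdia6, with edgeR adjusted p of 0.116 and 0.117. Without ischemia replicate 2 the log2 fold changes of Pdia4, Pdia3 and Pdia6 were 0.86, 0.62 and 0.47.

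Xbp1 encodes the transcription factor whose mRNA is cut by Ire1 and rejoined in a longer reading frame under ER stress. It lies on chromosome 14, 85753760 to 85758145, plus strand. FPKM was 67.5, 47.7 and 65.5 for sham and 108, 190 and 110 for ischemia. The lowest ischemia library was clearly above the highest sham library, and ischemia replicates 1 and 3 were almost equal. The sham mean was 60.2 ± 10.9 (SD, n = 3) and the ischemia mean 136 ± 46.6 (SD, n = 3). Xbp1 rose by 1.08 ± 0.23 (SE) on the log2 scale, with an edgeR adjusted p of 0.0485. The size of the change varied little over the 15 alternatives, from 0.83 to 1.19. Over all 15 the adjusted p ran from 0.0006 (DESeq2) to 0.17 (edgeR without sham replicate 1), and the call did not hold in 10 of them. The call was lost when any of sham replicates 1, 2 and 3 or ischemia replicates 2 and 3 was left out (edgeR adjusted p of 0.17, 0.108, 0.149, 0.0526 and 0.133). Counts per gene do not separate spliced from unspliced Xbp1 mRNA, so Ire1 activity was not measured.

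Herpud1 encodes a membrane protein that helps to assemble the ubiquitin ligase complex which clears misfolded proteins from the ER. It lies on chromosome 19, 11046909 to 11057254, minus strand. FPKM was 78.0, 79.2 and 74.6 for sham and 124, 134 and 106 for ischemia. The groups did not overlap, and by FPKM each had the smallest SD relative to its mean among the 10 genes. On counts per library size with TMM scaling, which the test uses, the sham values were 144, 181 and 135, a range of 1.34-fold. Calr (1.07-fold), Xbp1 (1.14), Hspa5 (1.18) and Pdia4 (1.23) had narrower sham ranges on that scale, and the other genes wider ones. The ischemia range of Herpud1, 1.12-fold, was the narrowest of the 10. The sham mean was 77.3 ± 2.39 (SD, n = 3) and the ischemia mean 121 ± 14.3 (SD, n = 3). The log2 fold change was the lowest of the 10, 0.55 ± 0.19 (SE, edgeR adjusted p = 0.112). Without ischemia replicate 2 it was 0.52.

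**Figure D3:**
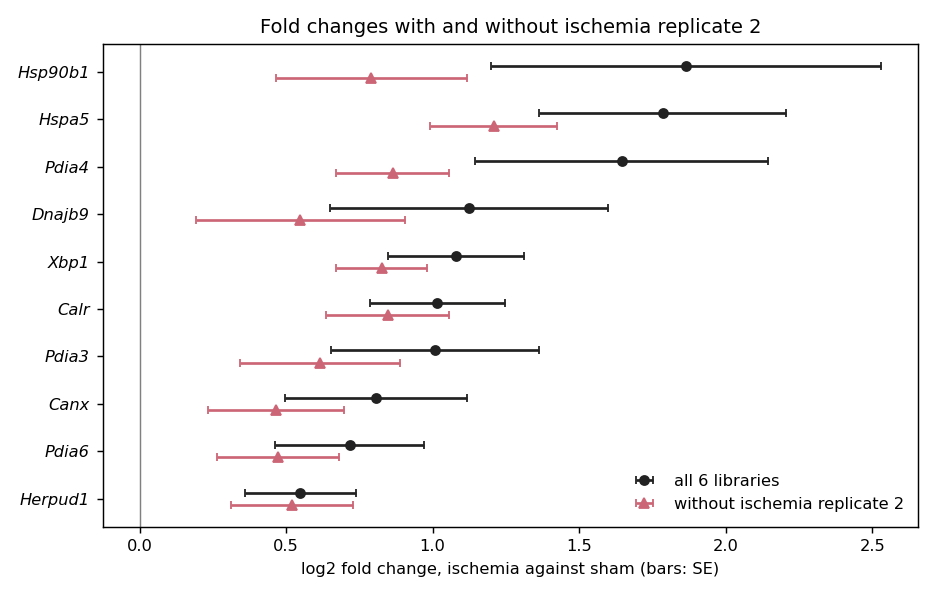
Log2 fold change of ischemia against sham with its SE for each ER gene, from all 6 libraries (black circles) and without ischemia replicate 2 (red triangles). All values lie above 0, and the change without that library is widest for Hsp90b1, from 1.86 to 0.79, and narrowest for Herpud1, from 0.55 to 0.52.

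The same libraries were highest and lowest for most of the ER genes. Their summed counts made up 0.285%, 0.182% and 0.259% of all counts for sham and 0.443%, 1.02% and 0.426% for ischemia. By FPKM, ischemia replicate 2 was the highest library for all 10 genes and sham replicate 2 the lowest for 9, with sham replicate 3 lowest for Herpud1. On counts per library size with TMM scaling (CPM) these numbers were 9 and 8, since Herpud1 was highest in ischemia replicate 1 and Hspa5 and Herpud1 were lowest in sham replicate 3. The excess of ischemia replicate 2 over the mean of the other two ischemia libraries differed between the genes. On that scale it was 4.30-fold for Hsp90b1, 3.14-fold for Pdia4, 2.46-fold for Hspa5 and Dnajb9 and 1.92-fold for Pdia3. It was 1.36-fold for Calr and 1.05-fold for Herpud1. Hspa5 took 20.3% to 23.2% of the counts of the 10 genes in the sham libraries and 27.2%, 33.0% and 29.2% in the ischemia libraries.

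Neutrophil and monocyte markers were also highest in ischemia replicate 2, which held the highest FPKM for 12 of 13 of them, with Cd177 highest in ischemia replicate 1. Of 13 neutrophil and monocyte markers 11 were tested, all 11 had a log2 fold change above 0, and 10 rose past the adjusted edgeR threshold. Their summed FPKM was 139, 108 and 189 for sham and 1281, 8516 and 2010 for ischemia. Lyz2 made up most of that sum, and the other 12 markers summed to 15.9, 24.5 and 15.9 for sham, highest in replicate 2, and to 535, 3769 and 533 for ischemia. Fpr1 and Retnlg, markers of neutrophils, had 0 reads in all 3 sham libraries; Retnlg had 434, 765 and 336 reads in the ischemia libraries and Fpr1 had 0, 174 and 0. Whether the labelled 30 min is the time at which the tissue was collected cannot be told from these files. The summed FPKM of 5 markers of B cells and plasma cells was 3.41, 3.82 and 4.30 for sham and 9.49, 11.4 and 3.33 for ischemia. Of the 4 tested, 3 had a log2 fold change above 0. The plasma cell genes of that list went different ways, with Mzb1 at 1.90, 1.01 and 1.68 FPKM for sham and 1.56, 0.270 and 0.172 FPKM for ischemia, and Jchain at 0.607, 0.406 and 1.18 FPKM for sham and 3.60, 5.29 and 0.761 FPKM for ischemia. The 9 cardiomyocyte markers summed to 28433, 43784 and 26586 for sham and 23978, 12187 and 22369 for ischemia, highest in sham replicate 2 and lowest in ischemia replicate 2. Of these 9, 1 had a log2 fold change above 0, and their median log2 fold change was -0.79. The 6 fibroblast markers summed to 698 to 2247 in sham and 271 to 706 in ischemia, and 0 of 6 had a log2 fold change above 0. The 4 mesothelial markers summed to 85.0, 40.0 and 56.7 FPKM for sham and 29.0, 6.12 and 4.89 FPKM for ischemia. Of these, 0 of 4 had a log2 fold change above 0. The 5 endothelial markers summed to 170, 183 and 182 FPKM for sham and 206, 209 and 210 FPKM for ischemia. Of these, 2 of 5 had a log2 fold change above 0. The part of all these markers, and of the atrial genes, in the values of the ER genes was not tested.

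**Figure D4:**
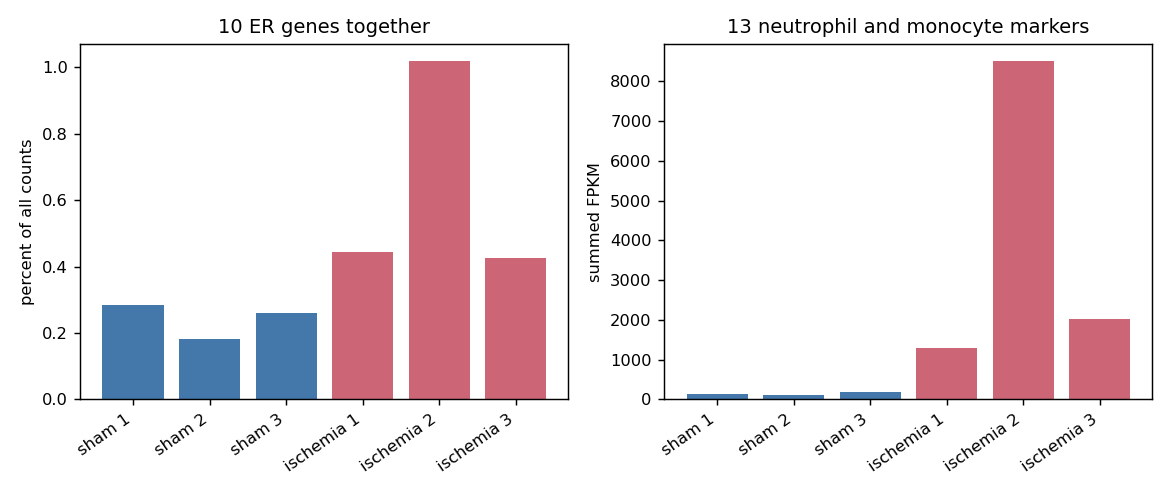
Left, counts of the 10 ER genes as a percent of all counts in each library; right, summed FPKM of 13 neutrophil and monocyte markers. Sham libraries are blue and ischemia libraries red, and ischemia replicate 2 is the highest in both panels, at 1.02% and 8516.

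FPKM, which accounts for gene length, put Calr first in sham at a mean of 312, above Hspa5 at 196, Pdia3 at 142 and Pdia6 at 110. Herpud1, Hsp90b1, Xbp1 and Canx followed between 77.3 and 52.3, with Pdia4 at 32.4 and Dnajb9 at 11.4 last. The sham ranges of Calr and Hspa5, of Pdia6 and Herpud1, and of Pdia4 and Dnajb9 did not overlap, and all other neighbors overlapped. Within each sham library, though, Hspa5 was above Pdia3, Pdia3 above Pdia6, Xbp1 above Canx and Canx above Pdia4. The order of Herpud1 and Hsp90b1 and of Hsp90b1 and Xbp1 differed between sham libraries. In ischemia Hspa5 came first at 730 and Calr second at 672, then Pdia3 at 302 and Hsp90b1 at 272. Hspa5 was above Calr in ischemia replicate 2 alone, and the ranges of the pair overlapped. Among ischemia means, the ranges of Calr and Pdia3 and of Canx and Dnajb9 were the neighbors that did not overlap. Pdia6 was above Xbp1 in every ischemia library, although their ranges overlapped.

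Profiles were compared by the root mean square difference of log2 CPM over the 6 libraries, each gene centered on its own mean. The 3 tested genes nearest to Hspa5 were Il6r at 0.121, LOC103694381 at 0.122 and Ptpn2 at 0.125. Il6r encodes the interleukin-6 receptor and Ptpn2 a tyrosine phosphatase of cytokine signaling. Among the ER genes Pdia4 was nearest, at 0.222 and rank 31 of all tested genes, and Herpud1 farthest, at 0.706.

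The wider ER machinery was described by 95 further genes in 7 lists by role, of which 91 were tested. Of these 68 had a log2 fold change above 0, against 49.9% of all tested genes. Past the adjusted edgeR threshold 7 rose (background 5.18%) and 0 fell (background 1.53%). Of the 91, 38 were higher and 6 lower at an unadjusted edgeR p under 0.05, where 18.2% and 14.2% of all tested genes stood. DESeq2 called 33 higher and 7 lower, against 14.8% and 12.5% of all tested genes. The ischemia libraries were all above the sham libraries in 42 genes (22.0% of all tested genes) and all below in 10 (19.1%). Leaving out 1 library gave 0 to 17 listed genes higher. It was 17 without ischemia replicate 1, where 10.7% of all tested genes were called higher. It was 0 without sham replicate 1, 2 or 3 or ischemia replicate 3. The median log2 fold change was 0.55 over the 91 genes and 1.05 over the 10 ER genes above, and without ischemia replicate 2 these medians were 0.32 and 0.70.

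Of 6 stress sensors and their proteases none passed the edgeR test (2 were higher and 0 lower at an unadjusted p under 0.05), and their median log2 fold change was 0.42. Atf6 had 7.95, 3.56 and 6.17 FPKM for sham and 7.70, 21.0 and 9.41 FPKM for ischemia, so its groups overlapped. It had the highest log2 fold change, 1.02 ± 0.40 (SE), which was 0.54 without ischemia replicate 2, and Mbtps1, the protease that makes the first cut in Atf6, the lowest, -0.48 ± 0.21 (SE), with edgeR adjusted p of 0.138 and 0.168. Ern1 (Ire1) was at 0.46 and Eif2ak3 (Perk) at -0.18, both named after their values were seen.

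Of 10 transcription factors and Perk-arm genes none passed either, with 3 higher and 2 lower at an unadjusted edgeR p under 0.05 and a median log2 fold change of 0.68. Trib3, a pseudokinase induced by Atf4 and Chop, was at 3.27 ± 1.04 (SE), with 0.614, 0.751 and 0.878 FPKM for sham and 2.51, 20.8 and 1.28 FPKM for ischemia. Without ischemia replicate 2 the log2 fold change of Trib3 was 1.28. Creb3l2, an ER-anchored transcription factor, was at -1.23 ± 0.37 (SE). The edgeR adjusted p of Trib3 and Creb3l2 was 0.0952 and 0.0843. Atf4, named after its values were seen, had FPKM values of 84.6, 73.0 and 90.6 for sham and 124, 398 and 259 for ischemia, and a log2 fold change of 1.55 with an edgeR adjusted p of 0.0632. Ddit3, which encodes the death-linked factor Chop and was also chosen after its values were seen, overlapped between the groups, with 29.0, 30.2 and 35.3 FPKM for sham and 16.8, 104 and 29.6 FPKM for ischemia.

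Among 18 other luminal chaperones and co-chaperones 3 rose, 0 fell, and 12 had a log2 fold change above 0, with a median of 0.70. Creld2, a secreted ER protein with isomerase activity, had FPKM values of 15.3, 8.96 and 13.9 for sham and 46.8, 132 and 43.6 for ischemia. It rose by 2.44 ± 0.44 (SE, edgeR adjusted p = 0.0377), a larger value than that of any of the 10 members, with no test of the difference, and without ischemia replicate 2 it was 1.81. Sdf2l1, a partner of the BiP co-chaperone Dnajb11, rose by 1.54 ± 0.27 (SE), with sham libraries between 15.4 and 20.7 FPKM and ischemia libraries between 40.1 and 85.2. Manf, a secreted BiP partner, rose by 1.45 ± 0.24 (SE), with sham libraries between 75.9 and 112 FPKM and ischemia libraries between 219 and 393. Their edgeR adjusted p was 0.0372 and 0.0349. Dnajc3, a co-chaperone of BiP that also inhibits Perk (1.80), and Hyou1, a nucleotide exchange factor of BiP (1.16), chosen after their values were seen, had edgeR adjusted p of 0.0543 and 0.0594.

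Of 14 other disulfide isomerases and oxidases 11 had a log2 fold change above 0, and 1 rose. It was Pdia5, at 2.96, 2.37 and 3.89 FPKM for sham and 8.48, 11.1 and 7.47 FPKM for ischemia, with a log2 fold change of 1.47 ± 0.23 (SE) and an edgeR adjusted p of 0.0316. P4hb, the founding member of the family, named after its values were seen, was at 1.11 with an edgeR adjusted p of 0.0504. All 5 tested genes of the lectin cycle and glycan trimming, out of 7, had a log2 fold change above 0. Mogs, the glucosidase that removes the first glucose, rose by 1.10 ± 0.17 (SE) with an edgeR adjusted p of 0.0304. Mogs had values of 4.80, 3.78 and 4.92 FPKM for sham and 10.9, 10.1 and 9.46 FPKM for ischemia.

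Of 22 genes of ER-associated degradation, the group to which Herpud1 is closest in role, none passed the edgeR test (7 were higher and 1 lower at an unadjusted p under 0.05), and the median log2 fold change was 0.31. Derl3, a channel component, was highest at 3.78 ± 1.13 (SE), with 0.659, 0.593 and 0.287 FPKM for sham and 1.87, 21.0 and 1.66 FPKM for ischemia. Without ischemia replicate 2 the log2 fold change of Derl3 was 1.69. Erlec1, a lectin that recognizes misfolded glycoproteins, was lowest at -0.85 ± 0.25 (SE). The edgeR adjusted p of Derl3 and Erlec1 was 0.0851 and 0.0828. Of 16 tested genes of the translocon, the signal peptidase and associated proteins, out of 18, 13 had a log2 fold change above 0 and 2 rose. Sec61b, a subunit of the translocation channel, rose by 1.53 ± 0.25 (SE), and Ssr2, of the translocon-associated complex, by 0.89 ± 0.17 (SE), with edgeR adjusted p of 0.0346 and 0.0427. The calls of Creld2, Sdf2l1, Manf, Pdia5, Mogs and Sec61b did not hold in 5 of the 15 alternatives each, and that of Ssr2 in 10.

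**Figure D5:**
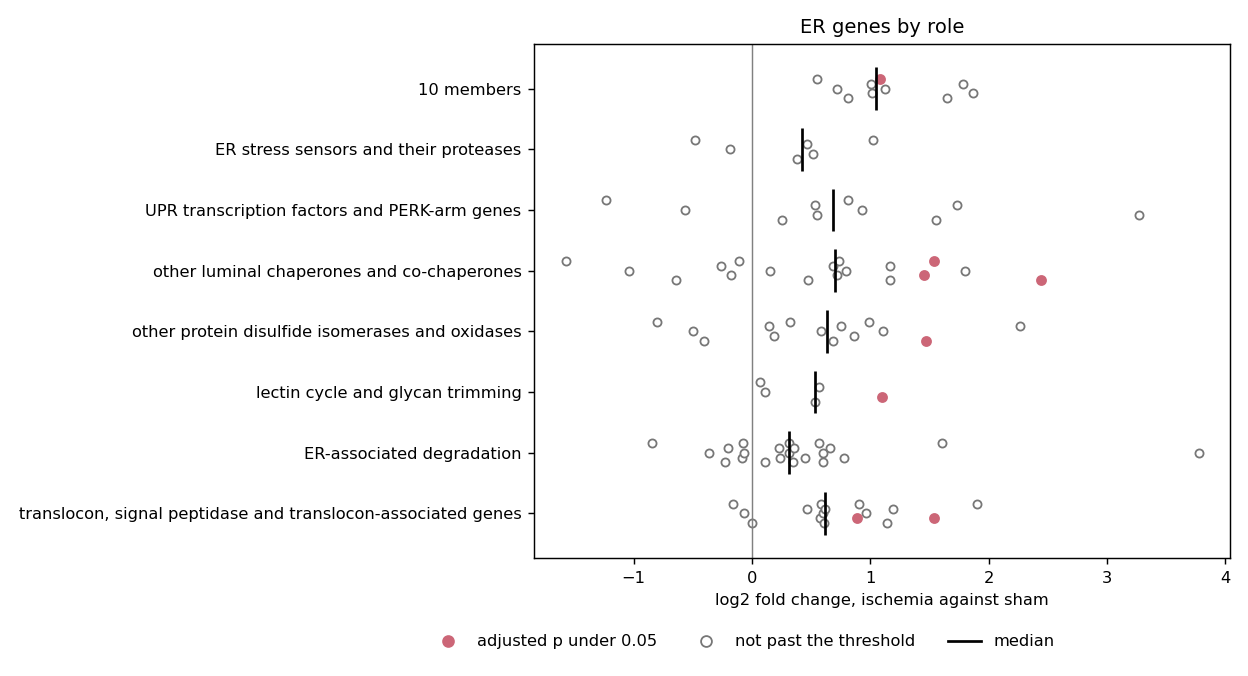
Log2 fold change of ischemia against sham for the 10 members and the 91 tested genes of 7 lists by role, 1 point a gene. Filled red points passed an adjusted edgeR p of 0.05, open points did not, and black bars are medians. The member median is 1.05, and list medians lie between 0.31 and 0.70.

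Genes that share a promoter element with the members differed in direction. In all, 21 genes held an exact ERSE, and 16 of them were tested: the 5 members and 11 others. Of these 11, 6 had a log2 fold change above 0 (49.9% of all tested genes), and the median was 0.86. In the adjusted edgeR test 1 of the 11, Creld2, rose (5.18% of all tested genes). In 5 of the 11, Creld2, Derl3, Dnajc3, Hnrnpa3 and Zfand2a, every ischemia library was above every sham library (22.0% of all tested genes), and in 3, Ppm1l, Ankmy2 and Pan2, every ischemia library was below (19.1%). Hnrnpa3, Zfand2a, Ppm1l, Ankmy2 and Pan2 were named after their values were seen. The log2 fold change was 1.31 for Hnrnpa3, 1.87 for Zfand2a, -1.45 for Ppm1l, -1.07 for Ankmy2 and -0.57 for Pan2, and none of these passed the edgeR test, with adjusted p of 0.0772, 0.108, 0.0519, 0.0977 and 0.0942. ERSE-II, the element of Herpud1, was held by 17 genes, and 10 others than Herpud1 were tested. Of these 10, 8 had a log2 fold change above 0 (49.9% of all tested genes). In 5 every ischemia library was above every sham library (22.0% of all tested genes). In 1, Prkcz at -2.09 on the log2 scale, every ischemia library was below (19.1%). The edgeR adjusted p of Prkcz, named after its values were seen, was 0.0622. Rcl1, named after its values were seen, was the 1 that rose, by 2.49 ± 0.26 (SE, edgeR adjusted p = 0.0248). Pdia4, whose window held none of the 3 motifs, had a fold change among the 3 highest of the members.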

How the data were processed

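Total RNA of rat myocardium was sequenced from 3 sham and 3 ischemia samples with a stranded total RNA kit. The raw read counts deposited by the authors are whole numbers per gene and were not normalized. The authors also deposited FPKM, in which a gene with no read holds 1e-04. The submitters' processing notes name STAR and HTSeq; their versions and the genome build are not given in the sources used here, so positions are those of the table. How reads of overlapping genes or near-identical copies were shared is not stated, which leaves such genes uncertain.

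The members and gene lists were chosen with earlier results of these data known. The filter was a mean FPKM of 0.5 or more over the 6 samples (13964 of 32623 genes). Counts were scaled by TMM and tested with the quasi-likelihood test of edgeR 4.0.16, two-sided, group only, with Benjamini-Hochberg adjustment over all tested genes and a threshold of 0.05. SE was derived from the F statistic. The test was also run on simulated data, and the outcome is not used here. Named were all members, every called gene of a list (the 4 with the widest change if more passed) or else its highest and lowest gene, the 3 genes nearest to Hspa5, and marker genes at 0 or in a list that moved; other names are marked as chosen after their values were seen. Libraries held 68529126 to 79591989 counts. Alternatives were DESeq2 1.42.0, other scalings, filters of low values, limma 3.58.1 on log2(FPKM + 0.1) and log2(FPKM + 1), the replicate number as a block, and leaving out each sample. R 4.3.3, Python 3.11.15 and matplotlib 3.10.9 were used. Promoter windows came from RefSeq (GRCr8) by symbol; 8 of 10 members and 78 of 95 list genes matched. Reads were not analysed here.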

Additional observations from a re-analysis of the deposited data

How the results depend on the processing

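All 150 log2 fold changes of the 10 ER genes under 15 alternatives were above 0, while the number called changed. Of the members, 8 were called higher by DESeq2 (Hspa5, Hsp90b1, Calr, Pdia3, Pdia4, Pdia6, Xbp1 and Herpud1), 2 at a mean FPKM of at least 5 (Calr and Xbp1), and 0 with total-count scaling, without a filter on low values or with limma on log2(FPKM + 1). With limma on log2(FPKM + 0.1), 1 was called, Calr instead of Xbp1. Leaving out 1 library gave 0 to 3: Hspa5, Xbp1 and Dnajb9 without ischemia replicate 1, Hspa5 without ischemia replicate 2, and 0 without any of the other 4. Of the 91 tested ER genes of the lists, DESeq2 called 33 higher and 7 lower, against 14.8% and 12.5% of all tested genes. Leaving out 1 library gave 0 to 17 higher and 0 to 3 lower. Both maxima came without ischemia replicate 1, where 1490 (10.7%) of 13964 tested genes were called higher and 1115 lower. Over all genes DESeq2 called 2071 higher and 1742 lower against 723 and 214. Total-count scaling called 83 lower and no filter 93 lower. Leaving out 1 library gave 0 to 1490 higher and 0 to 1115 lower, with 0 in both directions without sham replicate 1, 2 or 3 or ischemia replicate 3. The cause of these shifts was not tested. With the replicate block, 0 members, 0 listed ER genes and 0 genes in either direction passed edgeR's adjusted threshold (3349 genes, 4 of the 10 members among them, at an unadjusted p under 0.05). Whether the replicate numbers pair the samples is not shown. Deviations from the group means correlated at -0.109 on average for same-numbered samples (-0.192 to -0.053) and 0.0527 for others. The deviations sum to 0 within each group, which ties these averages to each other, so they do not settle the pairing. How depth bears on these calls was not tested.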
